A study of Homo sapiens with 12 samples.

Results

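LYRM1, OSTM1, SPAST, SCN3A and CPEB3 are 5 genes, of 11963 measured, whose transcripts were among those that differed most after YAP silencing in RCC4 renal carcinoma cells, and which are not among the usual YAP target genes. They were chosen by name for that difference, so their silencing values are given as a description with no test. All their probe sets that carry exactly 1 gene symbol were taken, which gave 6 of the 22215 probe sets tested, with 2 for SPAST and 1 for each other gene. YAP1 itself, with 1 probe set, served as the reference for remaining YAP transcript on each array.

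RCC4, a human line from clear cell renal carcinoma, is long in laboratory use. Its cells received a non-targeting siRNA (siNT) or an siRNA against YAP (siYAP) for 2 days, and then either DMSO, the vehicle, or 1 µM erastin for 7 hours. Erastin blocks the cystine/glutamate antiporter and is used to provoke ferroptosis, a form of cell death driven by lipid peroxidation. Each of the 4 combinations of siRNA and treatment had 3 biological replicates, 12 Affymetrix arrays in all. The labels name 1 cell line and 1 siRNA reagent per target, and the siRNA sequences were not used here. Loss of YAP and any other action of the same siRNA therefore cannot be told apart in these data, and neither can fewer cells of a kind and less RNA per cell, because RNA came from whole cultures.

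The deposited values are on a log2 scale, ran from 2.02 to 14.4, and had array medians between 6.49 and 6.52. Arrays of a group correlated at 0.9956 to 0.9986. Of 9 renal carcinoma and tubule markers, 8 were measured, and their mean levels lay between percentiles 69.8 and 99.5 of all probe sets. The 5 endothelial markers lay between percentiles 9.26 and 42.9, the 3 immune markers measured between percentiles 14.3 and 38.7, and the 5 fibroblast and pericyte markers between percentiles 26.0 and 63.2. In limma, silencing in DMSO called 6 of the 8 renal markers (4 higher, among them CA12 by 1.04 and PAX2 by 0.37, and 2 lower, among them KRT18 by -0.35) and 2 of the 5 fibroblast and pericyte markers (RGS5, 0.44 higher, and ACTA2, 0.42 higher and also called under erastin). Over all genes 31.6% were called for silencing in DMSO. For silencing under erastin 4 renal markers were called higher and 2 lower, against 33% of all genes called. No endothelial or immune marker was called or had an unadjusted p under 0.05 in limma for silencing, but at their low levels few calls could be made. The part of any marker in the member differences was not tested. On the siYAP erastin replicate 2 array YAP1 read 6.21, against 4.18 to 4.90 on the other siYAP arrays, so the member differences that use that array are also given without it. The number of arrays limits the precision of every value below, and limma p-values set a difference against the spread between these replicate cultures.

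YAP is a transcriptional coactivator held in check by the Hippo kinase cascade. In the nucleus it binds the TEAD factors, which recognise GGAATG, and raises genes of growth, adhesion and the cytoskeleton. The 5 genes serve other processes. LYRM1 encodes a small protein with the LYR tripeptide motif, whose relatives help assemble mitochondrial respiratory complexes and deliver iron-sulphur clusters. OSTM1 is the accessory subunit of the lysosomal chloride/proton exchanger CLC-7, and its loss causes osteopetrosis. SPAST encodes spastin, an ATPase that severs microtubules, works with ESCRT-III proteins in membrane scission, and is mutated in hereditary spastic paraplegia. SCN3A encodes the voltage-gated sodium channel NaV1.3, best known from developing neurons. CPEB3 is an RNA-binding protein that regulates translation and poly(A) tail length of messages with a cytoplasmic polyadenylation element.

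The promoter sequences are shown because 3 of the genes were lower together when YAP was silenced, and they give the places of the letters bound by TEAD. RefSeq windows on GRCh38.p14, the 250 bases before each annotated start, were found for LYRM1 (6 windows), OSTM1 (1), SPAST (1) and CPEB3 (2), that is for 4 of the 5 genes, and for YAP1 (1). The motif GGAATG, searched on both strands, occurred at 1 place in LYRM1, which 2 of its overlapping windows share, and at 1 place in YAP1. The matches lie upstream of an annotated start and are shown with their flanks at chr16:20900589-20900618 (plus strand) for LYRM1 and chr11:102110273-102110302 (plus strand) for YAP1, with the motif in capitals.
LYRM1: tcttgttttacgGGAATGgagcggggagga
YAP1: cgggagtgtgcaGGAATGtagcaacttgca
GGAATG was found in 11.9% of all 35116 windows of this length, so a match is common and describes the letters only. That rate is per window, and the 6 windows of LYRM1 gave more room for a match than the 1 window of OSTM1, SPAST or YAP1. The windows of OSTM1, SPAST and CPEB3 held none. OSTM1 (chr6:108074742-108074991, minus strand) and SPAST (chr2:32063306-32063555, plus strand) are printed 5′ to 3′ with CCAAT, the letters bound by NF-Y, or its reverse complement in capitals.
OSTM1: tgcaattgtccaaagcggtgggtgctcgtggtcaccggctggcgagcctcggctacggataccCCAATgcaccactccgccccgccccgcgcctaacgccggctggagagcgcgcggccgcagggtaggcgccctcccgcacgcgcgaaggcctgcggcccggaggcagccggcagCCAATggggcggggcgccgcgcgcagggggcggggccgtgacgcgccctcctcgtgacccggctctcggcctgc
SPAST: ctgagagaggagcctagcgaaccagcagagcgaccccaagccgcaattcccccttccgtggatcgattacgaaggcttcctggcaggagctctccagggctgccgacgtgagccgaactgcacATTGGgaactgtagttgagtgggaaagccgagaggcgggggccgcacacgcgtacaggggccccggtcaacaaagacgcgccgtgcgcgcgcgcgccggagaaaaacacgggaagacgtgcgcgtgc
CCAAT on either strand was found in 32.0% of all windows, and 1 of the CPEB3 windows held it too. The AP-1 letters TGANTCA, found in 6.57% of windows, were in no window of these genes.

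LYRM1, OSTM1 and SPAST were lower in every siYAP array than in every siNT array, and SCN3A and CPEB3 were higher in every siYAP array than in every siNT array. In DMSO the differences were 7.53-fold lower for LYRM1, 7.02-fold lower for OSTM1 and 5.89-fold lower for SPAST. SCN3A was 5.90-fold higher and CPEB3 3.76-fold higher, with a CPEB3 siNT level that was not shown to be above background. In the limma fit over all probe sets, 27.4% were called at an adjusted p under 0.05 for silencing in DMSO (6079 of 22215), and all 6 member probe sets were among them. For silencing under erastin 28.9% were called (6415), again with 6 of 6 members. The rule chose the genes on these contrasts, so nothing is read from those counts. The ACTB 3′ minus 5′ signal, a measure of RNA integrity, was 2.26 ± 0.69 in siNT cells and 3.54 ± 0.18 in siYAP cells with erastin (SD, n = 3), with no overlap. With DMSO it was 2.68 ± 0.28 and 2.59 ± 0.96. The same measure for GAPDH showed no such gap. It was 0.15 ± 0.08 in siNT cells and 0.17 ± 0.04 in siYAP cells with erastin, and 0.18 ± 0.07 and 0.22 ± 0.01 with DMSO. The part of RNA integrity in the differences with erastin was not tested.

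**Figure D1:**
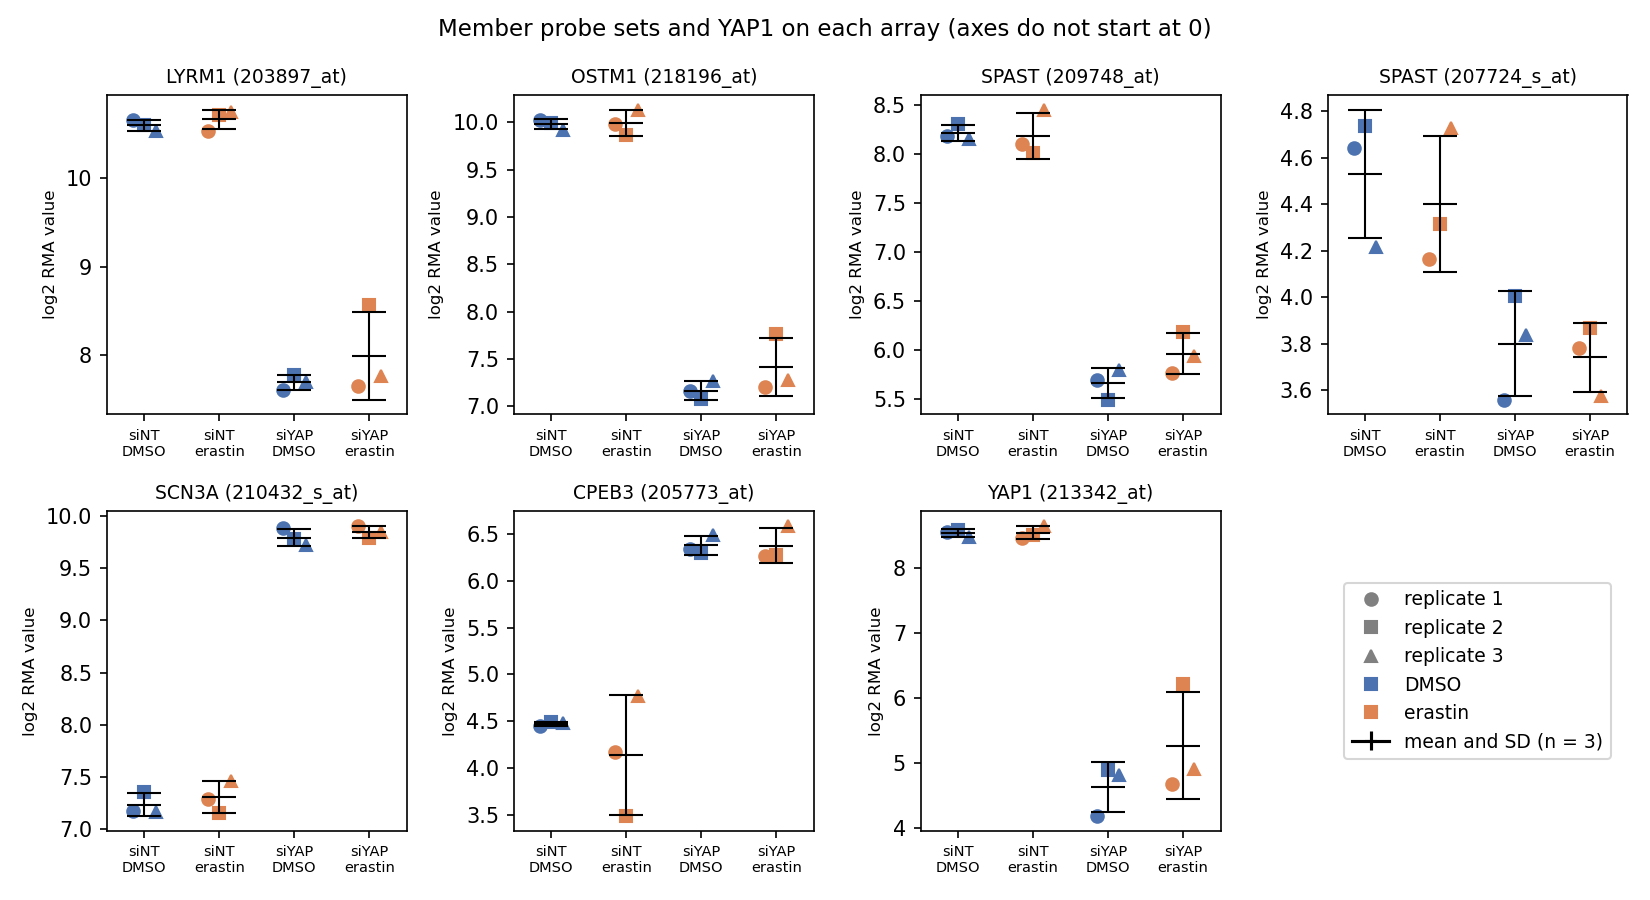
Deposited log2 signal (vertical axis) of the 6 member probe sets and of YAP1 on each of the 12 arrays, by group; points are arrays and bars are group means with SD (n = 3). LYRM1, OSTM1 and both SPAST probe sets lie lower, and SCN3A and CPEB3 higher, on all 6 siYAP arrays than on the 6 siNT arrays.

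Among the genes that were lower, LYRM1 (probe set 203897_at, chromosome 16) read 10.66, 10.60 and 10.54 in siNT cells with DMSO and 10.54, 10.71 and 10.75 with erastin. In siYAP cells it read 7.60, 7.78 and 7.69 with DMSO and 7.65, 8.57 and 7.76 with erastin. The siNT arrays were alike in both treatments, while siYAP erastin replicate 2 read higher than the other siYAP arrays and still lay below all siNT arrays. Group means were 10.60 ± 0.06 and 7.69 ± 0.09 in DMSO (SD, n = 3), a difference of -2.91 on the log2 scale (SE 0.18). With erastin the means were 10.67 ± 0.11 and 7.99 ± 0.50 (SD, n = 3), a difference of -2.68, which was -2.96 without siYAP erastin replicate 2. LYRM1 had the second largest fall of all genes in both treatments, moving from about percentile 91.5 to 63.4 of the array in DMSO.

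OSTM1 (218196_at, chromosome 6) read 10.03, 9.99 and 9.92 in siNT cells with DMSO and 9.98, 9.86 and 10.13 with erastin. In siYAP cells the readings were 7.16, 7.07 and 7.27 with DMSO and 7.20, 7.76 and 7.28 with erastin. As for LYRM1, the highest siYAP reading was that of erastin replicate 2, and the siNT and siYAP arrays did not overlap. The means in DMSO were 9.98 ± 0.05 and 7.17 ± 0.10 (SD, n = 3), a difference of -2.81 (SE 0.12). With erastin they were 9.99 ± 0.14 and 7.41 ± 0.30, a difference of -2.58, or -2.75 without replicate 2. By size of fall OSTM1 was number 4 of all genes in DMSO and number 3 with erastin.

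SPAST was read by 2 probe sets of very different brightness. The brighter (209748_at, chromosome 2) read 8.19, 8.31 and 8.16 in siNT cells with DMSO, and 8.10, 8.01 and 8.46 with erastin. In siYAP cells it read 5.69, 5.49 and 5.80 with DMSO, and 5.77, 6.19 and 5.94 with erastin. The siYAP readings with erastin reached somewhat higher than those with DMSO, again with replicate 2 at the top. The difference was -2.56 in DMSO (SE 0.13; means 8.22 ± 0.08 and 5.66 ± 0.15, SD, n = 3) and -2.22 with erastin, or -2.34 without replicate 2. It was the fall numbered 7 of all genes in DMSO and 11 with erastin.

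The dimmer SPAST probe set (207724_s_at) lay between percentiles 12.1 and 28.7 of the arrays, in the range of the endothelial and immune markers, and was not shown to be above background. It read 4.64, 4.74 and 4.22 in siNT cells with DMSO, 4.16, 4.32 and 4.73 with erastin, 3.56, 4.01 and 3.84 in siYAP cells with DMSO, and 3.78, 3.87 and 3.58 with erastin. Its differences of -0.73 in DMSO and -0.66 with erastin had the direction of the brighter probe set and a much smaller size (-0.72 with erastin without replicate 2). The spread within a group, up to 0.29 (SD, n = 3), was also larger relative to the difference.

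Of the genes that were higher, SCN3A (210432_s_at, chromosome 2) read 7.18, 7.36 and 7.16 in siNT cells with DMSO and 7.29, 7.16 and 7.46 with erastin. In siYAP cells it read 9.88, 9.78 and 9.72 with DMSO and 9.91, 9.79 and 9.85 with erastin. These were the tightest values of the 5 genes in siYAP cells, and erastin replicate 2 lay within 0.2 of every other siYAP array. The difference was 2.56 in DMSO (SE 0.08; means 7.23 ± 0.11 and 9.79 ± 0.08, SD, n = 3) and 2.54 with erastin (7.30 ± 0.15 and 9.85 ± 0.06), or 2.57 without that array. SCN3A had the third largest rise of all genes in DMSO and the second largest with erastin, and went from about percentile 57.9 to 85.7 of the array in DMSO. Of 5 neuron markers, 4 were measured, with levels between percentiles 13.9 and 51.3, and 1 of them, GAD1, a GABA-synthesising enzyme, was called higher in siYAP cells with DMSO, by 0.25 (limma adjusted p = 0.0121); its part in the SCN3A difference was not tested.

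CPEB3 (205773_at, chromosome 10) was dim in siNT cells, at 4.45, 4.49 and 4.48 with DMSO and 4.17, 3.48 and 4.77 with erastin, between percentiles 10.5 and 29.2. In siYAP cells it read 6.34, 6.30 and 6.50 with DMSO and 6.26, 6.27 and 6.59 with erastin. All siYAP readings lay above all siNT readings, and the siNT erastin arrays were the only group of this gene that spread by more than 1 log2 unit. The difference was 1.91 in DMSO (SE 0.23; means 4.47 ± 0.02 and 6.38 ± 0.10, SD, n = 3) and 2.24 with erastin (4.14 ± 0.64 and 6.38 ± 0.19). Its siNT level was in the range of the endothelial and immune markers, such as PECAM1 at 4.33. That level was not shown to be above background, so these differences may understate the change in CPEB3 transcript. By its measured value the rise was number 8 of all genes in DMSO and number 4 with erastin. Without siYAP erastin replicate 2 the difference with erastin was 2.29, and without siNT erastin replicate 2, the array at 3.48, it was 1.91.

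The YAP1 transcript left on each siYAP array was the reference for the next comparison. YAP1 (213342_at) read 8.55, 8.59 and 8.47 in siNT cells with DMSO and 8.47, 8.52 and 8.65 with erastin. In siYAP cells it read 4.18, 4.88 and 4.81 with DMSO and 4.68, 6.21 and 4.90 with erastin, so all siYAP arrays were well below the siNT arrays and replicate 2 with erastin was the least silenced. On the other 5 siYAP arrays YAP1 lay between percentiles 19.9 and 30.3, in the range of the endothelial and immune markers, so differences among those arrays may be background signal and not remaining transcript. Over the 6 siYAP arrays, which lie on 1 side of the silencing contrast, LYRM1 followed YAP1 most closely of the 5 genes. The r of genes outside the 5 is not given here. LYRM1 gave Pearson r = 0.966 (exact permutation p = 0.00278, Benjamini-Hochberg 0.0139 over the 5 genes, two-sided) and Spearman rho = 0.943 (exact permutation p = 0.0167, adjusted 0.0833). The smallest p this design allows is 0.00139. Without the 2 arrays farthest from the median YAP1, siYAP erastin replicate 2 and siYAP DMSO replicate 1, r was 0.931 over the 4 left. With 1 array left out, r for LYRM1 lay between 0.886 and 0.999, and its adjusted exact permutation p was 0.0833, no longer past the threshold, without siYAP DMSO replicate 1 or 3 or siYAP erastin replicate 1 or 2. The value of 0.999 was that without siYAP DMSO replicate 1, and 0.886 that without siYAP erastin replicate 2. Fewer arrays allow fewer pairings and so a coarser test, but such a test could still pass. The adjusted exact permutation p was 0.0139 without siYAP DMSO replicate 2 and 0.0417 without siYAP erastin replicate 3.

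OSTM1 gave r = 0.900 with remaining YAP1 (exact permutation p = 0.0486, adjusted 0.122) and rho = 0.657 (p = 0.175, exact, adjusted 0.292). SPAST gave r = 0.754 (exact permutation p = 0.0861, adjusted 0.144) and the same rho. Neither passed after adjustment, and without those 2 arrays r was -0.05 for OSTM1 and -0.04 for SPAST. Without siYAP erastin replicate 2 alone r was 0.221 for OSTM1 and 0.142 for SPAST, and without siYAP DMSO replicate 1 alone it was 0.939 and 0.762. Their relation thus rested on siYAP erastin replicate 2. Without siYAP DMSO replicate 2 r was 0.979 for OSTM1 and 0.969 for SPAST (adjusted exact permutation p = 0.0139 for both). SCN3A gave r = -0.394 (exact permutation p = 0.492, adjusted 0.615; rho = -0.429, exact p = 0.419, adjusted 0.524) and CPEB3 r = -0.209 (exact permutation p = 0.7, adjusted 0.7; rho = 0.0857, exact p = 0.919, adjusted 0.919). For SCN3A and CPEB3 the same 4 arrays gave r of -0.498 and 0.606. Both quantities in each pair came from the same RNA and array. The genes were chosen with these arrays known.

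**Figure D2:**
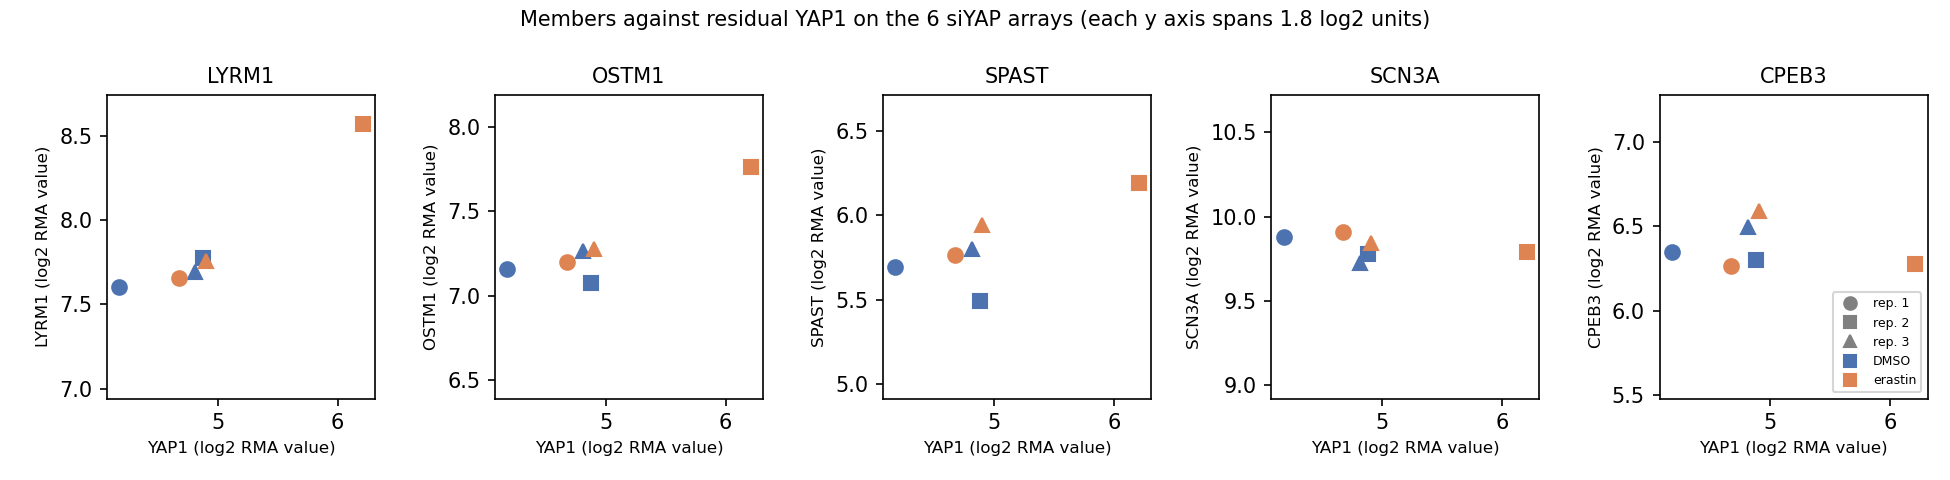
Log2 signal of each of the 5 genes (vertical axis, brightest probe set) against log2 YAP1 signal on the same array (horizontal axis), with 1 point per siYAP array, coloured by DMSO or erastin. The 6 arrays lie at YAP1 values from 4.18 to 6.21; LYRM1 was highest among them on the array with the most YAP1, and SCN3A was not.

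How far siYAP erastin replicate 2 lay from its group mates was also expressed as a share of the distance between their mean and the siNT erastin mean. On the log2 scale that share was 37.8% for YAP1, 29.0% for LYRM1, 19.0% for OSTM1, 14.4% for SPAST, 6.70% for CPEB3 and 3.29% for SCN3A. The genes that were lower had moved further toward the siNT level on this array than those that were higher. The same held over other genes with at least a 2-fold difference in DMSO, where 209 lower genes had a median share of 19.9% (quartiles 14.6% to 25.9%) and 109 higher genes a median of 3.86% (-0.37% to 8.68%). Of the 209 lower genes, 41 had a share at least that of LYRM1, 112 at least that of OSTM1 and 159 at least that of SPAST. This puts LYRM1 in the upper part of its class and the brighter SPAST probe set in the lower. The dimmer SPAST probe set, not shown to be above background, had a larger share of 25.9%. Of the 109 higher genes, 58 reached SCN3A and 37 reached CPEB3.

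The order depended on the scale. On linear signal, a comparison added after the log2 values had been seen, the shares were 13.4% for YAP1, 12% for LYRM1, 7.58% for OSTM1, 6.35% for SPAST, 6.89% for SCN3A and 13.6% for CPEB3. OSTM1, the brighter SPAST probe set and SCN3A were then close together, and CPEB3 was above LYRM1. The dimmer SPAST probe set had a linear share of 20.2%. The median over the other lower genes was 12.8% and that over the other higher genes 5.76%, so the gap between the classes narrowed. Of the lower genes, 119 reached LYRM1, 174 OSTM1 and 181 SPAST on this scale. On the log2 scale, 199 of the 209 lower genes and 80 of the 109 higher genes had a share above 0 on this array. Arrays of different groups correlated at 0.9889 to 0.9984. This array correlated at 0.9983 and 0.9986 with its group mates, so these values say little about its likeness to them. Its ACTB 3′ minus 5′ signal of 3.57 lay between theirs of 3.35 and 3.71, and its GAPDH signal of 0.13 below theirs of 0.20 and 0.18.

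**Figure D3:**
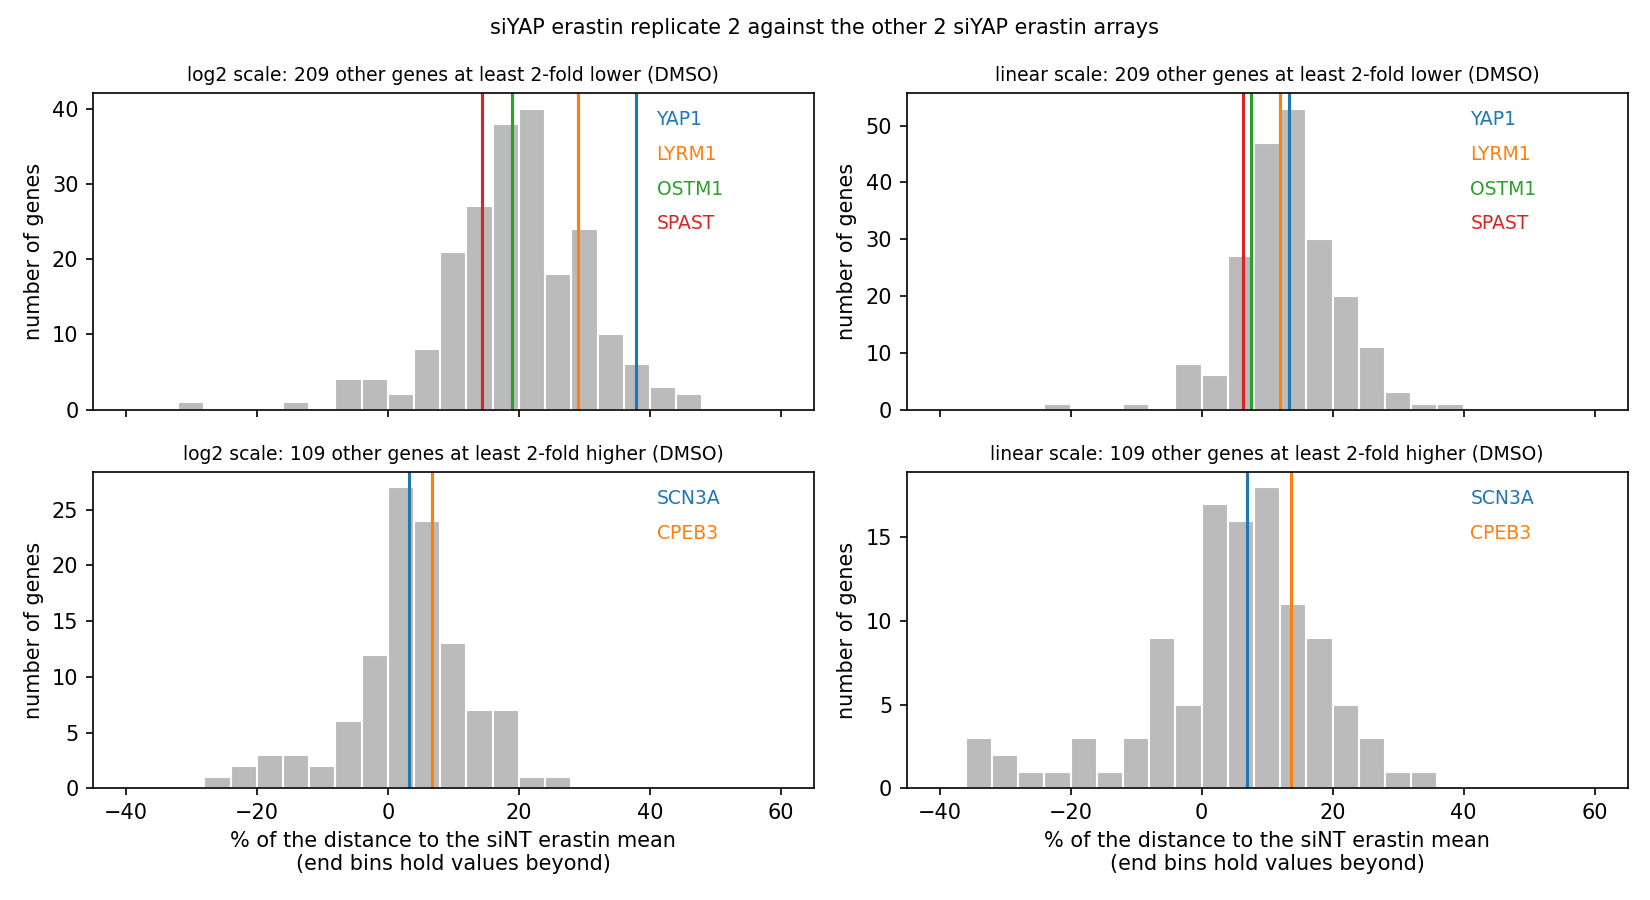
Distance of siYAP erastin replicate 2 from the mean of the other siYAP erastin arrays toward the siNT erastin mean, in percent (horizontal axis), on the log2 scale and on linear signal; histograms count the other genes at least 2-fold lower (209) or higher (109) in DMSO, and lines mark the 5 genes and YAP1. LYRM1 stands at 29.0% and SCN3A at 3.29% on the log2 scale, and at 12% and 6.89% on linear signal.

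Whether erastin changed the 5 genes was tested as the mean of its changes in siNT and siYAP cells, a contrast that does not use the silencing differences. No member probe set was called, 0 of 6 by limma, and 0 of 6 had an unadjusted p under 0.05, against 0.45% of all probe sets called (100 of 22215) and 9.10% at an unadjusted p under 0.05. On the log2 scale, and relative to DMSO, LYRM1 differed by 0.19 (95% interval -0.09 to 0.46, limma adjusted p = 0.718) and OSTM1 by 0.13 (-0.06 to 0.32, adjusted p = 0.717). SPAST differed by 0.14 (-0.06 to 0.33, limma adjusted p = 0.707), and its dimmer probe set by -0.09 (-0.35 to 0.16, adjusted p = 0.872). The genes that were higher after silencing differed by 0.06 for SCN3A (-0.07 to 0.19, limma adjusted p = 0.827) and -0.17 for CPEB3 (-0.52 to 0.18, adjusted p = 0.824). The intervals leave room for changes of up to 0.46 in LYRM1 and 0.52 downward in CPEB3, and only SCN3A was bounded within 0.2 in either direction. Without siYAP erastin replicate 2 the averaged differences were 0.04 for LYRM1, 0.04 for OSTM1, 0.08 for SPAST (-0.12 for its dimmer probe set), 0.08 for SCN3A and -0.14 for CPEB3. Without siNT erastin replicate 2 that of CPEB3 was -0.00.

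Taken in siNT cells alone, where 0.297% of probe sets were called (66), erastin differences were 0.07 for LYRM1 (limma adjusted p = 0.961), 0.01 for OSTM1 (0.991), -0.03 for SPAST (0.978), 0.07 for SCN3A (0.887) and -0.33 for CPEB3 (interval -0.83 to 0.16, adjusted p = 0.761). The dimmer SPAST probe set differed by -0.13 (limma adjusted p = 0.895). None of the 6 member probe sets was called by limma, and none had an unadjusted p under 0.05, against 8.76% of all probe sets. The CPEB3 value rested on siNT erastin replicate 2, without which it was -0.00, and compared levels not shown to be above background. In siYAP cells, where 0.171% were called (38), the differences were 0.30 for LYRM1 (-0.08 to 0.69, limma adjusted p = 0.607), 0.25 for OSTM1 (-0.02 to 0.52, 0.538), 0.30 for SPAST (0.03 to 0.58, 0.464), 0.05 for SCN3A (0.878) and -0.00 for CPEB3 (0.998). Again 0 of 6 were called, although the brighter SPAST probe set had an unadjusted p of 0.0344 in limma, where 9.91% of all probe sets had one under 0.05. The dimmer SPAST probe set differed by -0.06 (-0.42 to 0.30, limma adjusted p = 0.934). Without siYAP erastin replicate 2 the LYRM1 difference was 0.02, that of OSTM1 0.07, that of SPAST 0.19 (-0.12 for its dimmer probe set), that of SCN3A 0.08 and that of CPEB3 0.05. The ACTB 3′ minus 5′ signal also differed between these groups (3.54 ± 0.18 with erastin and 2.59 ± 0.96 with DMSO, SD, n = 3). That of GAPDH was 0.17 ± 0.04 with erastin and 0.22 ± 0.01 with DMSO. The part of RNA integrity in these differences was not tested. These contrasts use the arrays on which the genes were chosen.

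The interaction, the silencing difference under erastin minus that in DMSO, was 0.24 for LYRM1 (-0.31 to 0.78, limma adjusted p = 0.808), 0.23 for OSTM1 (-0.15 to 0.62, 0.709) and 0.33 for SPAST (-0.06 to 0.73, 0.609). For SCN3A it was -0.02 (-0.27 to 0.24, limma adjusted p = 0.980) and for CPEB3 0.33 (-0.37 to 1.03, 0.785). The dimmer SPAST probe set gave 0.07 (-0.44 to 0.58, limma adjusted p = 0.953). Limma called 0 of 22215 probe sets (0%; 2005, or 9.03%, at an unadjusted p under 0.05) and 0 of 6 members (0 unadjusted). Without siYAP erastin replicate 2 the values were -0.05, 0.06 and 0.22 for LYRM1, OSTM1 and SPAST, and 0.01 and 0.38 for SCN3A and CPEB3, so the direction for LYRM1 and SCN3A depended on that array. Without siNT erastin replicate 2 the CPEB3 value was 0.00.

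**Figure D4:**
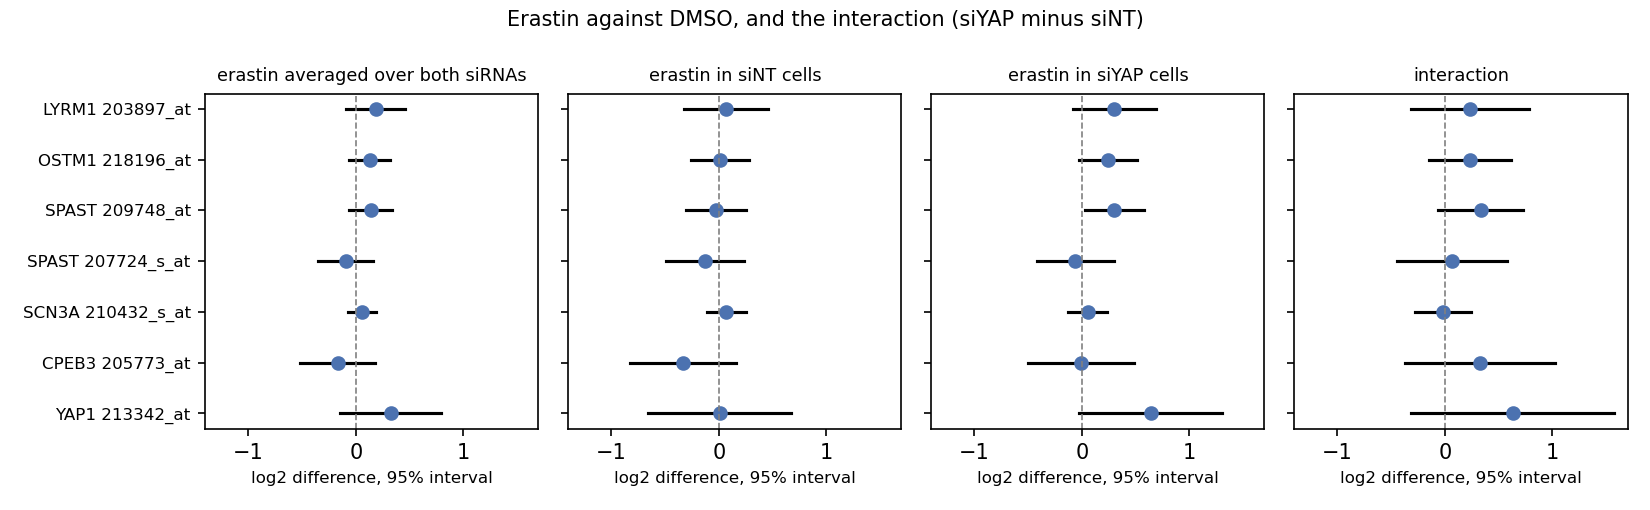
Log2 difference between erastin and DMSO (horizontal axis) for the member probe sets, averaged over both siRNAs, within each siRNA, and for the interaction; points are estimates and lines 95% intervals from the limma fit. All averaged intervals include 0. In siYAP cells the interval of the brighter SPAST probe set runs from 0.03 to 0.58 and that of the dimmer from -0.42 to 0.30.

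The genes whose 12-array pattern was most like that of each member were named by Pearson r, a description that the split between siNT and siYAP arrays sets. Symbols of provisional form, such as LOC, FLJ or KIAA names and numbered open reading frames, were passed over. For LYRM1 they were SLC11A2, the iron transporter DMT1 (r = 0.9989; -2.64 in DMSO and -2.31 with erastin), PLOD2, a collagen lysyl hydroxylase (0.9985; -2.67 and -2.41), and CREG1, a secreted glycoprotein (0.9976; -1.21 and -1.19). LYRM1 and YAP1 gave 0.9957. For OSTM1 they were R3HDM1 (0.9993; -1.21 and -1.14), NFATC2IP (0.9987; -1.85 and -1.63) and the bicarbonate cotransporter SLC4A4 (0.9977; -2.49 and -2.33). For SPAST they were ZCCHC10 (0.9984; -0.97 and -0.85), KLHL9 (0.9980; -1.11 and -0.92) and OSTM1 itself (0.9977). SLC11A2, PLOD2 and SLC4A4 had differences near those of the member they resembled, OSTM1 had a larger one than SPAST, and CREG1, R3HDM1, NFATC2IP, ZCCHC10 and KLHL9 had smaller ones.

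For SCN3A the most alike were the membrane scaffold STOM (r = 0.9974; 1.26 in DMSO and 1.21 with erastin), SLITRK5 (0.9972; 0.93 and 0.92) and RHOBTB1 (0.9969; 1.48 and 1.33). None came near the size of the SCN3A difference. For CPEB3 they were ELOVL6, a fatty acid elongase (0.9938; 1.15 and 1.44), MICALL1 (0.9908; 0.42 and 0.55) and the mitochondrial folate carrier SLC25A32 (0.9903; 0.50 and 0.49). ELOVL6 had the largest difference of these and was below CPEB3 in both treatments.

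The nearest measured genes on the chromosome were compared to see whether a difference reached past the member. Next to LYRM1, REXO5, an RNA exonuclease gene, was lower in siYAP cells by -0.93 in DMSO (limma adjusted p = 3e-06) and -0.78 with erastin (1.36e-05), and DNAH3 on the other side differed by 0.07 (0.708). The other 8 neighbours were not called in either treatment. In DMSO the OSTM1 neighbours SEC63 and NR2E1 differed by 0.16 and 0.07 (limma adjusted p = 0.133 and 0.678), and those of SPAST, SRD5A2 and SLC30A6, by 0.07 and 0.05 (0.644 and 0.754). Around SCN3A, COBLL1 differed by 0.20 (limma adjusted p = 0.0807) and the related sodium channel gene SCN2A by 0.10 (0.414). Around CPEB3, BTAF1 differed by -0.18 (limma adjusted p = 0.0836) and MARCHF5, which overlaps it, by 0.25 (0.128). Thus 1 of 10 neighbours was called, against 31.6% of all genes in DMSO. SCN2A had a mean level at percentile 14.6 of all probe sets, where few calls could be made. The levels of the other neighbours were not compared, so the count says little about them.

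The other genes of each member's pathway were counted over genes, of which 31.6% were called in DMSO (17% higher and 14.6% lower) and 33% with erastin (19% and 14%), with medians of 0.02 and 0.01 over all genes. Around LYRM1, 14 of 25 other LYR-protein and iron-sulphur assembly genes were measured, and 4 rose and 0 fell in DMSO, with 5 and 2 under erastin (median 0.10 in both). The risers included the cluster scaffold ISCU (0.49 in DMSO, limma adjusted p = 2.02e-05; 0.55 with erastin) and LYRM2 (0.41, adjusted p = 0.00401; 0.58). ISCA1 and HSPA9 fell by 0.25 and 0.19 with erastin. The 4 of 14 called in DMSO were near the share over all genes. With erastin the 5 higher and 2 lower of 14 were a larger share than the 33% over all genes, which was not tested.

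Around OSTM1, 30 of 33 other genes of lysosomal chloride transport, acidification and osteopetrosis were measured, and 6 rose and 6 fell in each treatment (median 0.03 in both). The proton pump subunit ATP6V1A rose by 1.15 in DMSO (limma adjusted p = 4.11e-08) and the chloride/proton exchanger CLCN4 by 0.85 (5.29e-06). SNX10, a sorting nexin also mutated in osteopetrosis, fell by 0.71 (limma adjusted p = 4.32e-06). CLCN7, the gene of the CLC-7 exchanger that OSTM1 partners, was not called, at 0.03 in DMSO (adjusted p = 0.850, limma).

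Around SPAST, 27 of 44 other genes of microtubule severing, ESCRT-III and hereditary spastic paraplegia were measured; 8 rose and 1 fell in DMSO, and 7 rose and 3 fell under erastin (medians 0.07 and 0.02). VPS4B, the ATPase that recycles ESCRT-III, rose by 1.19 in DMSO (limma adjusted p = 2.62e-07), and the ESCRT-III subunits CHMP2B and CHMP2A rose by 0.55 and 0.49. The severing enzyme subunit KATNA1 fell under erastin by 0.30 (limma adjusted p = 0.00185). RTN2, a reticulon of the same disease group, rose by 0.66 in DMSO and 0.73 with erastin.

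Around SCN3A, 16 of 23 other sodium channel genes and partners were measured, and 1 rose in DMSO and 2 under erastin, with none lower (medians 0.07 and 0.06). These were NEDD4L, a ubiquitin ligase of sodium channels (0.38 in DMSO, limma adjusted p = 0.00250; 0.24 with erastin), and the channel SCN9A with erastin (0.55, adjusted p = 0.0370). Of the 16 genes, 13 had a mean level under percentile 30 of all probe sets, down to 1.18 for SCN1A, where few calls could be made, so the count says little about the other channels. Around CPEB3, 25 of 37 other CPEB, deadenylation and polyadenylation genes were measured, with 1 higher and 10 lower in DMSO and 0 and 9 under erastin (medians -0.09 and -0.14). CNOT9, a subunit of the CCR4-NOT deadenylase, fell by 0.61 in DMSO (limma adjusted p = 1.43e-05), the poly(A) polymerase TENT4A fell by 0.55, and CPEB1, a relative of CPEB3, fell by 0.22 (adjusted p = 0.0180). For erastin averaged over both siRNAs, and for the interaction, limma called 0 of the 112 genes measured in these 5 lists, with 12 and 8 at an unadjusted p under 0.05, against 10.0% and 8.86% of all genes.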

How the data were processed

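Per the submitters' processing notes, the deposited log2 values were made with Affymetrix Expression Console and RMA; their versions and parameters are not given in the sources at hand. Of 22277 probe sets, 62 array controls were left out and 22215 tested; 19065 had 1 gene symbol in the platform annotation, 1043 several and 2107 none, and a gene was represented by its probe set with the highest mean over the 12 arrays. Group means were fitted over the 12 arrays with limma 3.58.1 in R 4.3.3 (lmFit, eBayes), with Benjamini-Hochberg adjustment over all probe sets and a threshold of 0.05; the code was tested on simulated data. Differences are on the log2 scale and SE is that of the fit. The members and lists were chosen with earlier results of these data known. Named genes were the members, for each member the 3 most alike by Pearson r (provisional symbols passed over) and the nearest measured gene on each side, and up to 3 called genes per list and comparison. CLCN7, KATNA1, CPEB1, ISCA1, HSPA9, SCN1A and the cell type markers were added after their values were seen. Alternatives were other scalings, filters, variance models and left-out arrays. Tests of the siYAP arrays against YAP1 were exact permutations of pairings.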

Additional observations from a re-analysis of the deposited data

How the results depend on the processing

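The member differences for silencing kept their direction under every alternative run, with 0 sign changes among 118 values of the 6 probe sets in DMSO and 118 with erastin. The differences of LYRM1 and of YAP1, the reference, with erastin moved by more than the replicate SD, to -2.96 and -3.76, both without siYAP erastin replicate 2. No member was called for erastin or the interaction under any alternative, and leaving out the dimmest 30% of probe sets removed the dimmer SPAST set. The counts over all probe sets moved as follows. With the replicate block, 62 were called for erastin averaged (100 without) and 33 in siNT cells (66 without). The numbers do not pair the arrays: of 18 same-numbered pairs 3 correlated over 0.1 (range -0.425 to 0.167), and 0 of 12 arrays lay closest to their own number. Without the dimmest 30%, 158 and 124 were called for those comparisons. With 1 probe set per gene, which tests 11963 features, silencing gave 3900 in DMSO and 4040 with erastin. The trended and robust model gave 203 for erastin averaged, 170 in siNT cells, 88 in siYAP cells and 7 for the interaction, and array weights gave 295, 186, 70 and 3. With only the 6 arrays compared, 10 were called in siNT cells. The causes were not tested. Leaving out 1 array at a time gave 5080 to 6588 for silencing in DMSO, 5097 to 6471 with erastin, 57 to 108 for erastin averaged, 34 to 50 in siNT cells, 19 to 49 in siYAP cells and 0 to 1 for the interaction. Pearson r with remaining YAP1 then ranged from 0.886 to 0.999 for LYRM1, 0.221 to 0.979 for OSTM1, 0.142 to 0.969 for SPAST, -0.646 to -0.209 for SCN3A and -0.334 to 0.382 for CPEB3. With 5 arrays, which allow fewer pairings and so a coarser test, the adjusted exact p for LYRM1 was 0.0833 without siYAP DMSO replicate 1 or 3 or siYAP erastin replicate 1 or 2. That adjusted exact p was 0.0139 without siYAP DMSO replicate 2 and 0.0417 without siYAP erastin replicate 3. Centred on the group means, r was 0.958 for LYRM1 (adjusted exact p = 0.0208), 0.861 for OSTM1, 0.641 for SPAST, -0.792 for SCN3A and -0.234 for CPEB3.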
